A study of Mus musculus with 3 samples.

Results

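The genes described here encode the initiation and elongation factors of protein synthesis: every row of the count table whose symbol starts with Eif or Eef and then a digit, without rows marked -ps. That gave 64 genes of 39179, of which 63 are annotated as protein-coding and 1, Eif2c5, as a long intergenic noncoding RNA. RNA was immunoprecipitated from white fat lysates of 16-week-old C57BL/6 mice that carried a Flag-FTO transgene and had been fasted overnight. Flag-IP 1 and Flag-IP 2 are libraries of RNA pulled down with the anti-Flag M2 monoclonal antibody, and the single IgG-IP library holds RNA pulled down with IgG from the same kind of transgenic mice. All 3 libraries therefore share the transgene and the fast, and none comes from mice without the transgene. The promoter that drives the transgene is not given in the sources used here, nor is the number of animals behind a library, and p-values measure only the spread between these libraries, which may be technical. FTO removes methyl groups from adenosines in RNA, and the comparison asked which RNAs came down with the tagged protein beyond what a nonspecific antibody collects.

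Initiation begins when eIF2 brings the initiator tRNA to the small ribosomal subunit, which carries eIF1, eIF1A, eIF3 and eIF5. The cap-binding factor eIF4E, the scaffold eIF4G and the helicase eIF4A load this complex on an mRNA, and eIF5B joins the large subunit at the start codon. eEF1 then delivers aminoacyl tRNAs and eEF2 moves the ribosome along by 1 codon at a time. Insulin, nutrient supply and stress act on these steps through the 4E-binding proteins, the eIF2 kinases and the eEF2 kinase.

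Most factor genes did not pass the test in either direction, and 4 of them did. Eif3f was far lower in the Flag-IP libraries, while Eif4a2, Eef2 and Eif4h were higher. Of the 64 genes, 54 had enough counts to be tested, 3 passed as higher, 1 as lower and 50 did not pass (edgeR's quasi-likelihood test, Benjamini-Hochberg adjusted p under 0.05 over all 17587 genes tested). Over all tested genes 5.58% were called higher and 5.77% lower, so the factor genes called higher made up a share near the background, and 1 of 54 called lower was not above it. The median log2 fold change of Flag-IP over IgG-IP was 0.064 for the factor genes and 0.032 for all tested genes. Normalization was by TMM, which centres on the bulk of the genes. When libraries were scaled by their totals instead, log2 fold changes shifted by a median of -0.52 over all genes, so a direction given here for a value smaller than that depends on the scaling. By normalized count both Flag-IP libraries lay above IgG-IP for 20 of the 54 genes and below it for 18, against 40.5% above and 39% below over all tested genes. The test has 1 residual degree of freedom, from the Flag-IP libraries alone, and treats the lone IgG-IP library as varying like them. A permutation of the 3 library labels could not give a two-sided exact p under 0.333.

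**Figure D1:**
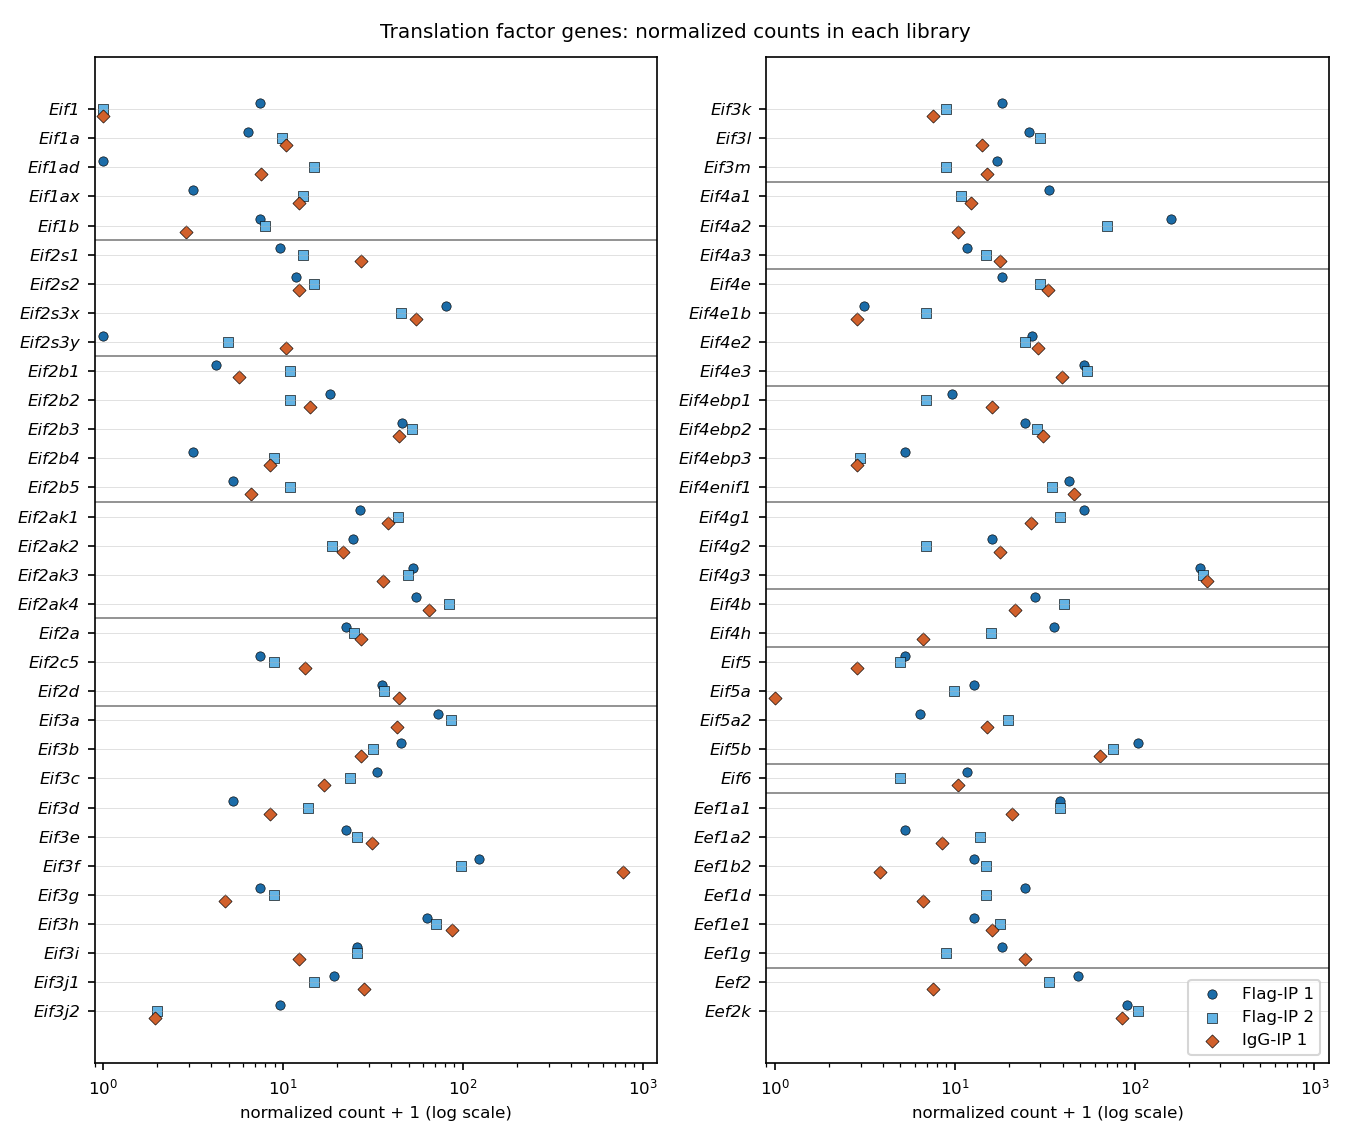
Normalized count plus 1 (log axis) of each of the 64 translation factor genes in Flag-IP 1 (circles), Flag-IP 2 (squares) and IgG-IP (diamonds), with grey lines between roles. Most genes have the 3 libraries close together, while Eif3f has 776 normalized counts in IgG-IP against 122 and 97.0 in the Flag-IP libraries.

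The factor genes were thinly counted. Their counts added up to 1856 in Flag-IP 1, 1880 in Flag-IP 2 and 2454 in IgG-IP, out of library totals of 98227791, 95824218 and 74176962. The median factor gene had 16.5, 14.5 and 15.5 counts, no gene was at 0 in all libraries, and 9 had a mean of at least 50 counts. Their mean count followed the length of the gene with its introns (Spearman's rho 0.73 across the 64 genes) more closely than the length of its exons (0.54), a description across genes that share libraries. Over 21226 protein-coding genes, rho with the length including introns was 0.91. The median of the mean counts was 15 over those genes and 16.8 over the factor genes. Eif4g3, whose gene spans 215 kb, had the second highest mean count. Eef1a1, whose mRNA is among the most abundant in most cells, had counts of 35, 38 and 21. Triplets of counts are always in the order first Flag-IP, second Flag-IP, IgG-IP.

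Eif3f encodes a subunit of eIF3 with an MPN domain (chr7:108934417-108942951, plus strand, GRCm38). It had 113 and 98 counts after anti-Flag and 824 after IgG, or 122, 97.0 and 776 normalized counts. Both Flag-IP libraries were low and close to each other, and neither came near IgG-IP. The log2 fold change was -2.83 ± 0.22 (SE; edgeR adjusted p = 3.14e-35), which is 0.14 times the IgG-IP level with a 95% interval of 0.12 to 0.163 that covers counting error only. This gene was singled out for description with its direction known. Its single-library log2 ratios to IgG-IP were -2.65 and -2.97. DESeq2 gave -2.84 (adjusted p = 1.73e-13), a test that called 0.824% of all genes lower and 0.745% higher. Only 1903 of the 17587 genes were given an adjusted p by DESeq2, and of those 145 were called lower and 131 higher.

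Per kilobase of exon, Eif3f had 268 normalized counts in IgG-IP, the first of the 64 genes, ahead of Eif3h with 53.2 and of a median of 3.91 over the factor genes. In the Flag-IP libraries it was still first of the 64 genes in Flag-IP 1 (42.1 normalized counts per kilobase) and the second in Flag-IP 2 (33.6), where Eif3h led with 43.6. Eif3f alone made up 33.6% of all factor gene counts in IgG-IP and 6.09% and 5.21% in the Flag-IP libraries. Without it the summed normalized counts of the other 63 genes were 1877, 1765 and 1535. Its neighbours were not called: Nlrp10, 4.24 kb upstream, had 2, 4 and 2 counts and was too low to test, and Tub, 7.39 kb downstream, had 25, 24 and 19 (log2 fold change 0.50 ± 0.56, SE, not passed). No other counted gene overlaps the Eif3f locus in the annotation used. The counts do not show which stretch of the locus they came from.

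None of the other eIF3 subunits passed edgeR's test, and DESeq2 gave none of them an adjusted p. At an unadjusted p under 0.05 edgeR had 1 higher and 0 lower of the 11 tested, against 12.9% higher and 11.8% lower over all tested genes. eIF3 is the largest initiation factor and binds the small ribosomal subunit and the mRNA. Of its other 13 genes 11 were tested, with a median log2 fold change of 0.50, and 6 lay above IgG-IP in both Flag-IP libraries, 3 lay below in both and 2 were mixed, where 40.5% of all tested genes lay above and 39% below. Their counts summed to 328, 342 and 303. Eif3a, the scaffold subunit, had 67, 86 and 45 counts and a log2 fold change of 0.89 ± 0.35 (SE; edgeR adjusted p = 0.0773), just short of the threshold. It passed with a trend on GC content removed (1.24, edgeR adjusted p = 0.0133) and when only genes averaging 50 counts or more were tested (0.98, edgeR adjusted p = 0.0272). Eif3a did not pass with scaling to total counts (0.38, edgeR adjusted p = 0.548) or without a filter on low counts (0.84, edgeR adjusted p = 0.176). Nor did it with a likelihood ratio test (0.89, edgeR adjusted p = 0.147). Eif3h, the other MPN-domain subunit, had 58, 71 and 91 counts, lower in both Flag-IP libraries and not past the threshold (-0.37 ± 0.31, SE; edgeR adjusted p = 0.507). Eif3i had 23, 25 and 12 counts and Eif3l 23, 29 and 14, each with its Flag-IP libraries above IgG-IP and not past the threshold.

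**Figure D2:**
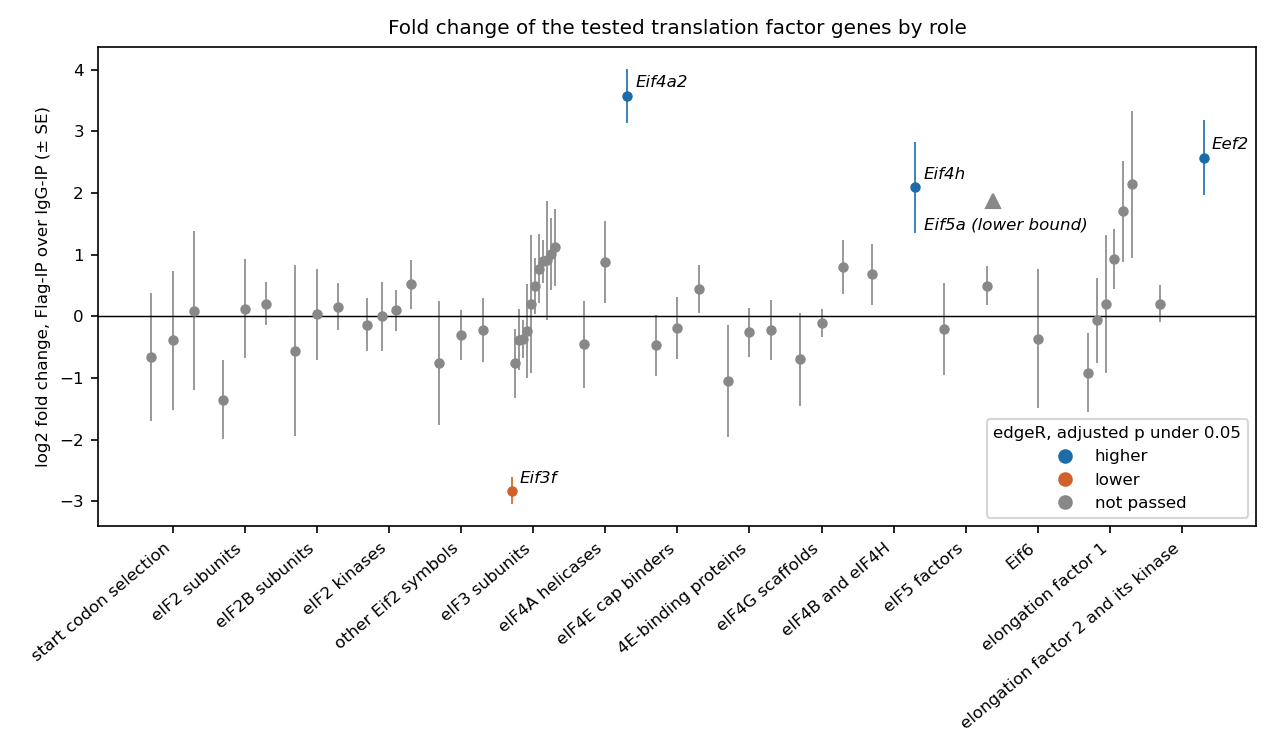
Log2 fold change of Flag-IP over IgG-IP (± SE) for the 54 tested factor genes, grouped by role and coloured by the edgeR call. Eif5a, at 0 counts in IgG-IP, is drawn as a triangle at its value with that count set to 3. The label calls this a lower bound, but it leaves out the counting error of the Flag-IP libraries. Eif3f at -2.83 is the single gene called lower.

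Among the eIF4F genes, which bind the cap and unwind the mRNA, the helicase gene Eif4a2 had the largest called increase (chr16:23107444-23114136, plus strand, GRCm38). It had 148, 70 and 10 counts, or 159, 69.3 and 9.42 normalized counts, so both Flag-IP libraries were far above IgG-IP and differed from each other as well. The log2 fold change was 3.58 ± 0.44 (SE; edgeR adjusted p = 5.78e-14), and 2.64 from Flag-IP 2 alone. Eif4a2 carries 5 small nucleolar RNA genes inside it. These guide chemical modification of other RNAs, are processed out of the host transcript and stay in the nucleus. Snora81 had 122, 53 and 0 counts, 32.5-fold higher in Flag-IP when the IgG-IP count of 0 is set to a floor of 3. Gm26447 had 14, 12 and 0, 4.77-fold higher at the same floor. Folds at this floor leave out the counting error of the Flag-IP libraries. The other three, Snord2, Gm24201 and Gm24616, had no counts.

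Together these RNA genes matched 91.9% and 92.9% of the Eif4a2 count in the Flag-IP libraries and 0% in IgG-IP. Taken off, they left 12, 5 and 10 counts for Eif4a2, a log2 fold change of -0.087 (edgeR adjusted p = 0.972). The call on Eif4a2 did not hold without these counts. Snora81 and Gm26447 lie where some annotated Eif4a2 transcript has an exon, so a read there could come from either RNA, and taking them off assumes that such reads were counted for both. Over the whole table, 30 small structural RNA genes with at least 50 Flag-IP counts lay inside a single protein-coding gene on the same strand, and for 30 of them the host's count reached theirs in every library. This cannot settle how reads were counted, since a host with enough reads of its own reaches that level either way. The 30 include Snora81 in Eif4a2, and several share the host Tex14. The RNAs behind the Eif4a2 count, another one from its relative Eif4a1 and the one inside Eef2 are printed here from GENCODE transcripts on GRCm38, since they are the stretches whose counts may belong to another molecule than the host's mRNA. Capitals mark the letters ACA within 8 bases of the end in Gm26447 and Gm22988, and the C box (TGATGA) and D box (CTGA) of Snord37. The letters ACA were not found in that window of Snora81.
Snora81 (in Eif4a2, chr16:23110756-23110933, plus strand): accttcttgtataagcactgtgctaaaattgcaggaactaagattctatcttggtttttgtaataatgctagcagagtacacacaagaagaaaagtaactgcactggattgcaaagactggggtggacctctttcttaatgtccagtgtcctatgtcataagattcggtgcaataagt
Gm26447 (in Eif4a2, chr16:23111301-23111429, plus strand): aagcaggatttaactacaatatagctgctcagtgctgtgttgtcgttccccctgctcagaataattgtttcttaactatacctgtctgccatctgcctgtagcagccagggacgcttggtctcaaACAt
Gm22988 (in Eif4a1, chr11:69669635-69669778, minus strand): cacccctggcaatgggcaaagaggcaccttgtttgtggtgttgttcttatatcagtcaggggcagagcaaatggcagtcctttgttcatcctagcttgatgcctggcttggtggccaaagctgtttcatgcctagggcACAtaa
Snord37 (in Eef2, chr10:81178950-81179013, plus strand): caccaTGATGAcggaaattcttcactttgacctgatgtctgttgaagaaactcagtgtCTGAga

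**Figure D3:**
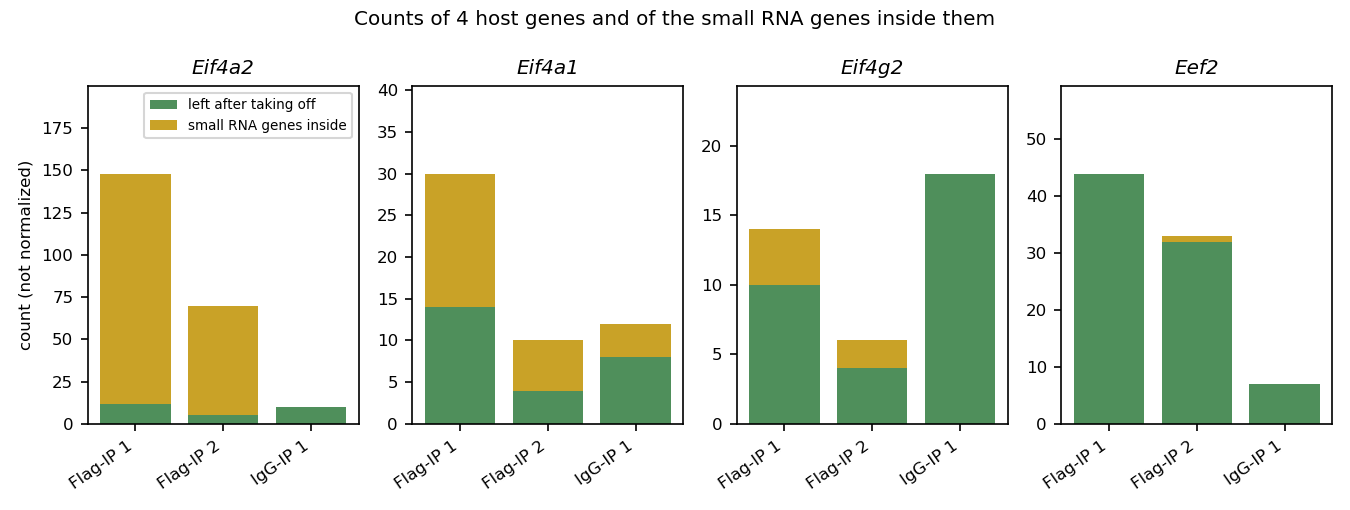
Counts, not normalized, of 4 host genes in each library, split into the counts of annotated small RNA genes inside them (yellow) and what is left when those are taken off (green). Small RNA genes match 136 of 148 and 65 of 70 counts of Eif4a2 in the Flag-IP libraries while they match 0 of 44 and 1 of 33 counts of Eef2.

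The same check moved other hosts less. Of the 64 factor genes 17 hold a structural RNA gene, 26 such genes in all, and 10 of these had any count. Eif4a1, for a close relative of the same helicase, had 30, 10 and 12 counts and did not pass. Its 3 small nucleolar RNA genes had 16, 6 and 4 counts in sum, 53.3% and 60% of the host's count in the Flag-IP libraries, and its log2 fold change went from 0.88 to 0.32 when they were taken off. Eif4g2 had 14, 6 and 18 counts, and the small nucleolar RNA gene in it had 4, 2 and 0. Every other host lost at most 2 counts in a library.

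The rest of the cap-binding machinery did not pass, apart from Eif4h. Eif4h, which stimulates the helicase, had 32, 15 and 6 counts (chr5:134619721-134639490, minus strand, GRCm38). Both Flag-IP libraries were higher than IgG-IP, the first by more, and the log2 fold change was 2.09 ± 0.74 (SE; edgeR adjusted p = 0.0421). It was 1.14 from Flag-IP 2 alone, and the call was lost with total-count scaling (1.56, edgeR adjusted p = 0.146), without a filter on low counts (2.04, edgeR adjusted p = 0.0637) and with the GC trend removed (1.49, edgeR adjusted p = 0.302). Its partner in function, Eif4b, had 25, 40 and 22 counts and did not pass.

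The eIF4G scaffold gene Eif4g3 was the best counted member after Eif3f, with 213, 241 and 269 counts. Its libraries lay close together, at 229, 239 and 253 normalized counts (log2 fold change -0.11 ± 0.23, SE), with a counting interval of 0.793 to 1.08 for the ratio. Eif4g1, the main scaffold, had 48, 38 and 27 counts (0.81 ± 0.44, SE, not passed). Of the cap binders, Eif4e had 16, 29 and 34 counts and Eif4e3 48, 54 and 41, and neither passed. Eif4e3 overlaps an annotated gene on the same strand, Gm20696 (356, 424 and 381 counts), from which its counts may not be separable. Of the genes for proteins that bind and hold eIF4E, Eif4ebp1 (8, 6 and 16 counts), Eif4ebp2 (22, 28 and 32) and the transporter gene Eif4enif1 (39, 34 and 48) all lay below IgG-IP in both Flag-IP libraries, with log2 fold changes of -1.04 ± 0.91, -0.23 ± 0.49 and -0.26 ± 0.40 (SE). None was past the threshold, 39% of all tested genes lay below in the same way, and the related Eif4ebp3, too low to test, had 4, 2 and 2 counts. Eif4enif1 overlaps Drg1 on the opposite strand, which had 380, 440 and 612 counts.

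Genes of the eIF2 pathway, which carries the initiator tRNA and is switched down under stress, did not pass either. Eif2s1, the subunit that the stress kinases phosphorylate, had 8, 12 and 28 counts. Both Flag-IP libraries were lower, with a log2 fold change of -1.35 ± 0.64 (SE; edgeR adjusted p = 0.166), and it was called under total-count scaling alone (-1.86, edgeR adjusted p = 0.0258). Eif2s3x, for the subunit that binds GTP, had 74, 45 and 57 counts, and its relative on the Y chromosome, Eif2s3y, had 0, 4 and 10 and was too low to test. Eif2b3 was the best counted gene of the exchange factor that reloads eIF2 with GTP, with 42, 52 and 46 counts (0.16 ± 0.38, SE). The other 4 eIF2B genes had mean counts of at most 13.3.

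The 4 eIF2 kinases sense different stresses, and their log2 fold changes ran from -0.13 to 0.52. Eif2ak4, which senses uncharged tRNA, had 50, 84 and 68 counts, with IgG-IP between the Flag-IP libraries. Eif2ak3, the kinase of the endoplasmic reticulum, had 48, 49 and 37 (0.52 ± 0.39, SE). Eif2ak1, which senses heme, had 24, 43 and 40, and Eif2ak2, which senses double-stranded RNA, had 22, 18 and 22. Eif2a and Eif2d, whose proteins can bring tRNA to the ribosome without eIF2, had 20, 24 and 28 counts and 32, 36 and 46 counts, slightly below IgG-IP in both Flag-IP libraries and not past the threshold. Eif2c5 has a symbol of the older Argonaute naming and had 6, 8 and 13 counts.

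The factors of start codon choice and subunit joining were mostly too low to read. Eif1, whose protein holds back initiation at wrong start codons, had 6, 0 and 0 counts. Eif1ax was the best counted of the 5 Eif1 genes, with 2, 12 and 12 counts, and its Flag-IP libraries differed more from each other than Flag-IP 2 from IgG-IP. Eif5b, for the GTPase of subunit joining, was well counted with 96, 76 and 67, both Flag-IP libraries above IgG-IP (0.50 ± 0.32, SE; edgeR adjusted p = 0.339). It overlaps Rev1 on the opposite strand, with 47, 39 and 83 counts. Eif5, whose protein triggers GTP hydrolysis by eIF2, had 4, 4 and 2. Eif6, which keeps the large subunit from joining early, had 10, 4 and 10.

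Eif5a, for the hypusine-bearing factor that eases peptide bond formation, had 11, 9 and 0 counts. With the IgG-IP count set to the same floor of 3, it was at least 3.67-fold higher in Flag-IP, and it did not pass (edgeR adjusted p = 0.0895). It passed without a filter on low counts (edgeR adjusted p = 0.0447). Its relative Eif5a2 had 5, 19 and 15 counts, with IgG-IP between the Flag-IP libraries.

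Of the elongation factor genes Eef2 alone passed. Eef2 encodes the GTPase that moves the ribosome to the next codon (chr10:81176631-81182498, plus strand, GRCm38). It had 44 and 33 counts after anti-Flag and 7 after IgG, or 47.4, 32.7 and 6.59 normalized counts. Both Flag-IP libraries were well above IgG-IP, and its log2 fold change was 2.58 ± 0.61 (SE; edgeR adjusted p = 0.000812), a ratio of 6.02 with a counting interval of 2.79 to 15.5. Like Eif3f it was singled out with its direction known. Snord37 inside it had 0, 1 and 0 counts, and the log2 fold change was 2.56 with that count taken off. With the GC trend removed it was 1.86 and just missed the threshold (edgeR adjusted p = 0.0516). DESeq2 gave 2.59 with an unadjusted p of 0.00979 and no adjusted p, as for 52 of the 54 tested genes, which its filter on mean count leaves out. At an unadjusted p under 0.05 DESeq2 had 3 factor genes higher and 1 lower of 54, where it had 4.14% higher and 2.57% lower over all tested genes, and edgeR had 6 higher and 2 lower, where it had 12.9% and 11.8%. Per kilobase of exon, Eef2 was in place 8 and 10 among the 64 genes in the Flag-IP libraries, with 14.3 and 9.83 normalized counts, and in place 49 in IgG-IP, with 1.98.

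The other 7 elongation genes did not pass. Eef2k, the kinase that shuts eEF2 down, had 83, 105 and 89 counts, a difference smaller than its error (0.21 ± 0.30, SE). Eef1a1, which brings aminoacyl tRNA to the ribosome, had log2 ratios to IgG-IP of 0.87 and 0.86 in the Flag-IP libraries (fitted 0.92 ± 0.49, SE; edgeR adjusted p = 0.219). Its muscle and neuron form Eef1a2 had 4, 13 and 8 counts. Of the exchange factor subunits that recharge eEF1A, Eef1b2 (11, 14 and 3 counts) and Eef1d (22, 14 and 6) lay above IgG-IP in both Flag-IP libraries, and Eef1g (16, 8 and 25) lay below in both. The ratio was 4.56 for Eef1b2, with a counting interval of 1.39 to 23.6, and 3.29 for Eef1d, with 1.37 to 9.54. In all, 5 of the 8 genes with an Eef symbol, Eef2 among them, lay above IgG-IP in both Flag-IP libraries and 1 below, beside 40.5% above and 39% below over all tested genes. The median log2 fold change was 0.57 for these 8 genes, which include Eef2k, against -0.058 for the 46 tested genes with an Eif symbol. The Eif symbols include the eIF2 kinases, the 4E-binding proteins and Eif2c5. That difference was not tested.

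GC content moved with the comparison over all genes. Across the 14920 protein-coding genes tested, Spearman's rho between the GC content of the longest transcript and the log2 fold change was 0.61. Across the 54 factor genes it was 0.32, and 0.38 over the 51 left without Eif3f, Eif4a2 and Eif5a. In the 18 factor genes of lowest GC, 5 had a log2 fold change above 0 and the median was -0.23. The median was 0.18 in the 18 genes of middle GC, with 12 above 0, and 0.20 in the 18 of highest GC, with 11 above 0. Eef2 (57% GC) and Eif4h (55.5%) were among the most GC-rich, Eif3f was in the middle at 49.8%, and Eif4a2 was at 40.2%. With the trend removed 2 factor genes were higher, Eif4a2 and Eif3a, and Eif3f was lower at -2.93, when 2.49% of all tested genes were called higher and 2.41% lower.

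**Figure D4:**
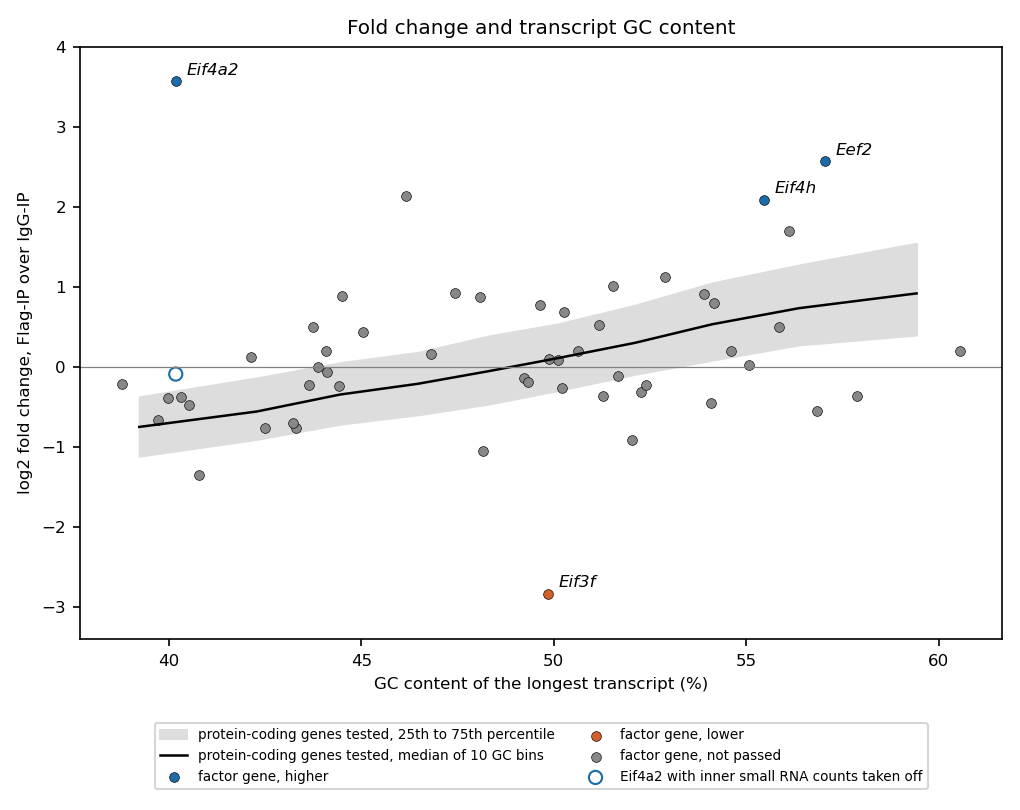
Log2 fold change against the GC content (%) of the longest transcript for 53 tested factor genes (Eif5a is left out), over the median and the middle 50% of the 14920 tested protein-coding genes in 10 GC bins. Eif4a2 falls from 3.58 to -0.087 when inner small RNA counts are taken off (open circle), and Eif3f lies far below the genes of its GC content.

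Other genes of translation showed 1 further call in edgeR's test. Of 19 other cytosolic factor genes, among them release factors and poly(A)-binding proteins, 17 were tested and none passed. Their median log2 fold change was 0.11. By edgeR at an unadjusted p under 0.05, 2 were higher and 1 lower, beside 12.9% and 11.8% over all tested genes. DESeq2 gave an adjusted p for 2 of the 17 and called neither. Single genes of this list passed under other settings: Gcn1l1 was higher with upper-quartile scaling and among genes averaging 50 counts or more, Dohh was higher with a likelihood ratio test, and Paip1 was lower with total-count scaling. The best counted was Eefsec, the elongation factor for selenocysteine, with 121, 151 and 152 counts. Among 12 genes that signal to the factors, 9 were tested and 1 was called higher, beside 5.58% of all tested genes. It was Mtor, the kinase that phosphorylates the 4E-binding proteins, with 84, 125 and 62 counts (0.88 ± 0.31, SE; edgeR adjusted p = 0.0448). Its transcript has 54.2% GC, and the log2 fold change was 0.38 with the GC trend removed (edgeR adjusted p = 0.636). The Mtor call was also lost with total-count scaling, without a filter on low counts and with a likelihood ratio test. Rptor was higher with upper-quartile scaling and among genes averaging 50 counts or more, and Rps6kb2 with a likelihood ratio test. By edgeR at an unadjusted p under 0.05, 3 of the 9 signalling genes were higher and 0 lower. Of 9 mitochondrial translation factor genes 8 were tested and none passed, with a median log2 fold change of -0.43 (0 in either direction by edgeR at an unadjusted p under 0.05), and DESeq2 gave none of them an adjusted p. The best counted of these was Gfm2, with 28, 23 and 46 counts, which was called lower with total-count scaling alone.

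The 2 Flag-IP libraries resembled each other more than either resembled IgG-IP. Among the 30 factor genes that averaged 20 counts or more, log2 values of the Flag-IP libraries differed from each other with an SD of 0.43. The SD was 1.09 and 0.94 for each Flag-IP library against IgG-IP. Without Eif3f and Eif4a2 these SDs were 0.39, 0.70 and 0.60. Over all 10249 genes that averaged 20 counts or more they were 0.47, 0.85 and 0.79. Markers of the labelled tissue were counted unevenly. The 12 adipocyte markers summed to 5391, 3914 and 3106 counts, most of them from Lpl and Aqp7. Adipoq had 18, 14 and 3, Fabp4 30, 17 and 19, Pnpla2 16, 5 and 9, and Cfd, too low to test, 6, 4 and 7. Of the brown adipocyte markers Cidea had 18, 18 and 15 counts and Ucp1 4, 4 and 2. Of the 11 tested adipocyte markers 3 were called higher (Plin1, Plin4 and Aqp7), beside 5.58% of all genes, and Plin1 did not pass with the GC trend removed (edgeR adjusted p = 0.124). Cidec, with 117, 93 and 152 counts, did not pass, but with the GC trend removed it was called lower (-1.08, edgeR adjusted p = 0.00172). Skeletal muscle markers summed to 136, 108 and 62 counts, leukocyte markers to 253, 282 and 455, fibroblast markers to 169, 161 and 130, endothelial markers to 287, 361 and 340 and epithelial markers to 28, 28 and 13. Of the 3 tested muscle markers Ckm, with 23, 19 and 4 counts, was called higher (edgeR adjusted p = 0.0334). Ckm did not pass with the GC trend removed (edgeR adjusted p = 0.185). The leukocyte sum came mostly from Ptprc, with 168, 211 and 365 counts, which was called lower (edgeR adjusted p = 0.00516) and did not pass with the GC trend removed (edgeR adjusted p = 0.517). Of the macrophage markers Csf1r had 20, 19 and 21 counts, Cd68 4, 6 and 2, and Lyz2 0, 0 and 4. The part of other cell types in the factor gene values was not tested. All 3 libraries are immunoprecipitates, so a marker difference need not be a difference in the cells of the lysate. Recovery by the antibody, fewer cells of a type and less RNA per cell cannot be told apart.

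**Figure D5:**
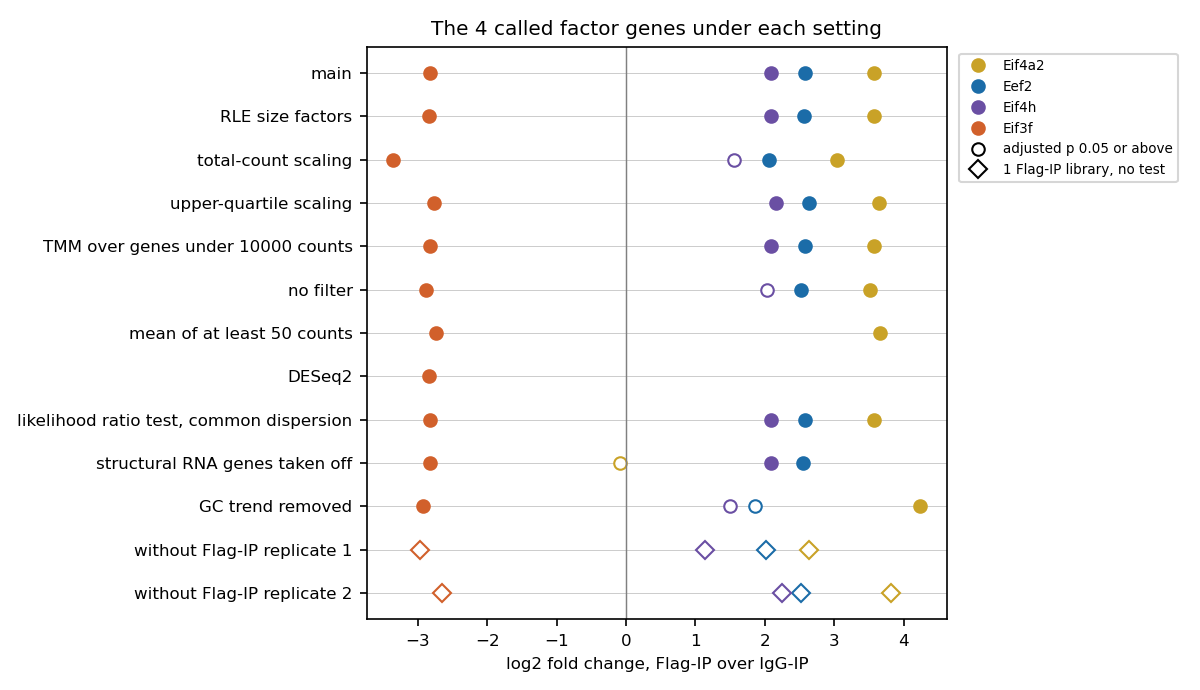
Log2 fold change of Eif4a2, Eef2, Eif4h and Eif3f under each setting of the analysis, with filled circles at an adjusted p under 0.05, open circles above it and diamonds for 1 Flag-IP library without a test. Settings that gave a gene no adjusted p are left blank. Eif3f stays between -3.35 and -2.65, while Eif4a2 goes to -0.087 when structural RNA genes are taken off.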

How the data were processed

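The authors deposited 1 table of raw read counts per gene, and each of its columns carries a sample number that the labels tie to 1 library. CASAVA 1.7, Bowtie 0.12.2 and mm8 appear in the submitters' processing notes. How reads were counted (program, annotation, strand, overlapping genes) was not given in the sources used here. A deposited list of lipid genes holds no factor gene and was not used. The factor genes, and the pathway and marker lists, were chosen with earlier results of these data known.

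Genes were filtered with filterByExpr (minimum count 10) and scaled with TMM factors (0.84 and 0.936 for Flag-IP, 1.27 for IgG-IP), and tested with edgeR 4.0.16 in R 4.3.3 (quasi-likelihood, threshold 0.05). Normalized counts are counts scaled to the mean effective library size. No gene had a finite prior df, so p-values and SEs rest on a spread shared between genes (biological coefficient of variation 0.189). SE is the log2 fold change divided by the root of F. Single-library ratios use a prior count of 2. Intervals are exact (Clopper-Pearson, 95%) and, like floors, cover counting error only. Positions, exon lengths, transcripts and GC come from GENCODE M21 (GRCm38), matched by identifier for 37607 of 39179 genes and all 64 members. The GC trend was a lowess curve over protein-coding genes, entered as an offset. Named genes are Eef2, Eif3f, called members, members averaging 50 counts or more and, in roles with none of these, the best counted member. Further members were named after their values were seen. Alternatives also used DESeq2 1.42.0.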

Additional observations from a re-analysis of the deposited data

How the results depend on the processing

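Eif3f was called lower in each fit run, from -3.35 to -2.74 on the log2 scale, and lay at -2.97 and -2.65 with 1 Flag-IP library left out. Eef2 was 1.86 with the GC trend removed and no longer passed (edgeR adjusted p = 0.0516), and ran from 2.01 to 2.52 with 1 Flag-IP library left out, values that use a prior count of 2. Eif4a2 fell to -0.087 with inner structural RNA genes taken off and no longer passed (edgeR adjusted p = 0.972). That step removed 136 of its 148 and 65 of its 70 Flag-IP counts, and it assumes that such reads were counted for both genes. The number of factor genes called higher was 3 in the main fit and 4 with a likelihood ratio test. It was 2 with total-count scaling, among genes averaging 50 counts or more, with structural RNA genes taken off and with the GC trend removed. DESeq2 called 0 higher and Eif3f alone lower, and left most members without an adjusted p. At an unadjusted p under 0.05 DESeq2 had 3 higher, 4.14% being its share over all genes. With total-count scaling 2 factor genes were lower, Eif3f and Eif2s1. The median log2 fold change of the factor genes was -0.45 with that scaling and 0.29 when only genes averaging 50 counts or more were tested (9 members), and ran from -0.080 to 0.15 with 1 Flag-IP library left out. Over all genes 981 were higher and 1015 lower, against 342 and 3008 with total-count scaling, 131 and 145 with DESeq2 and 438 and 424 with the GC trend removed. The cause of these changes was not tested. Counts of called genes have no value with 1 Flag-IP library left out, since no spread remains. No paired analysis was possible because there is only 1 IgG-IP library and the labels give no pairing. Low counts limit what could be seen: the counting interval of the Eef1b2 ratio runs from 1.39 to 23.6.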
